A study of Mus musculus with 40 samples.

Results

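The genes described here are 32 enzymes and regulators of cholesterol and fatty acid synthesis, measured by RNA sequencing in the kidney cortex of mice. They were picked from the count table by gene symbol, and each of the 32 symbols was found once among its 55401 genes. The 40 libraries came from 8 groups of 5 male mice on the C57BL/6J background. Ins2-Akita heterozygous mice (Akita mice) carry a mutated allele of the insulin gene Ins2, which is expressed in pancreatic beta cells, and were labelled diabetic. Wild type (WT) littermates were the controls. In the ethanol arm, mice of both genotypes were given the vehicle of 10% ethanol in water or MitoGamide, a mitochondria-targeted scavenger of dicarbonyls, at 10 mg/kg by daily oral gavage from 6 to 22 weeks of age. In the water arm, mice of both genotypes were given water or MitoQ, a mitochondria-targeted antioxidant. The labels repeat the ethanol arm's protocol for these groups, and the dose of MitoQ was not given in the sources used here. Arm and vehicle cannot be told apart, since no mouse of 1 arm received the vehicle of the other.

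Cells make cholesterol from acetyl-CoA through mevalonate, isoprenoid units, squalene and lanosterol. Fatty acids are built from the same precursor by acetyl-CoA carboxylase and fatty acid synthase and are then elongated and desaturated. SREBP transcription factors, encoded by Srebf1 and Srebf2, switch on many of these enzymes. They are escorted by SCAP to the Golgi for cleavage when sterols are low, and are held back in the endoplasmic reticulum by INSIG proteins when sterols are high. SREBP-1c, a product of Srebf1, and the carbohydrate response element binding protein encoded by Mlxipl respond to insulin and glucose. Both are best known for driving fatty acid synthesis in liver and fat, and in the kidney these pathways have been studied for the lipid that accumulates in diabetes.

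Libraries held between 9106654 and 24321424 estimated counts. Levels are given as CPM (counts scaled by library size), with TMM normalization between the 40 libraries, and fold changes as log2 differences with their standard error (SE). Sums of marker genes are CPM by library size alone, without TMM. The proximal tubule markers summed to between 3504 and 13980 CPM, as the most abundant of the cell type lists. Markers of the cortex of the adjoining adrenal gland summed to 2.811 to 7.916 CPM. Among them the aldosterone synthase Cyp11b2 was at 0 in all 40 libraries, Cyp21a1 in 28, Cyp11b1 in 23 and Mc2r in 12. Star and Cyp11a1 were above 0 in all 40, with medians of 3.45 and 0.455 CPM. Of the 40 libraries, 5 had a median Spearman correlation with the others under 0.95, namely Akita water replicates 2 and 5, WT water 3, WT MitoQ 3 and Akita MitoGamide 5. A further 2, WT water replicate 1 and WT MitoQ replicate 4, held over 1 CPM of the brown fat markers Ucp1, Cidea and Otop1. Where leaving out either set gained or lost a call over the 40 libraries, the value without it is given. In whole cortex, fewer cells of a type and less RNA per cell cannot be told apart.

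Upstream sequences are shown first, because many of these genes are described as targets of SREBP acting together with NF-Y. RefSeq promoters (GRCm38.p6) were matched by symbol for 25 of the 32 genes, with 34 start sites. Windows of 250 bases before each start were searched on both strands for the SREBP element TCACNCCAC, the NF-Y box CCAAT, the E-box CACGTG and the GC box GGGCGG. The NF-Y box was found in 61.8% of the 34 windows, against 33.8% of all 32851 windows, and the SREBP element in 5.88% against 1.05%. The E-box was found in 17.6% against 6.02%, and the GC box in 61.8% against 32.7%. These counts describe letters in a window and not binding. The stretches below show genes that were lower in Akita mice (Idi1, Mvd, Fasn, Srebf1), the carboxylase that was higher (Acacb), and the only 2 of the 25 with an SREBP element (Hmgcs1, Mlxipl). Capitals mark the SREBP element (TCACNCCAC) and the NF-Y box or its reverse complement ATTGG, and in Fasn the boxes of both strands overlap.
Idi1 (chr13:8885553-8885604 on the plus strand, 53 to 2 bases before a start): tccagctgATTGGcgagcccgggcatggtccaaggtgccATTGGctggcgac
Mvd (chr8:122443437-122443490 on the minus strand, 68 to 15 bases before a start): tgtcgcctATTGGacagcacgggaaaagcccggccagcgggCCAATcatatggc
Fasn (chr11:120824594-120824645 on the minus strand, 98 to 47 bases before a start): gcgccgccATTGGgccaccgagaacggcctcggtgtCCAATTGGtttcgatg
Srebf1 (chr11:60210489-60210509 on the minus strand, 38 to 18 bases before a start): ggctgctgATTGGccatgtgc
Acacb (chr5:114165423-114165443 on the plus strand, 95 to 75 bases before a start): aagggaccCCAATagccttgc
Hmgcs1 (chr13:119690106-119690235 on the plus strand, 245 to 116 bases before a start): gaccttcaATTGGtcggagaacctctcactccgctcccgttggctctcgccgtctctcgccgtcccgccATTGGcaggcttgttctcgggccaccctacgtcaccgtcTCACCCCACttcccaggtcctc
Mlxipl (chr5:135106747-135106771 on the plus strand, 144 to 120 bases before a start): cagtggttTCACACCACgctcactg
The NF-Y box was held by 20 of the 25 genes, among them genes with lower and with higher transcript in Akita mice. It was not among the letters of the windows of Acaca, Elovl6 and Fads2, which are described below. The stretches shown for Idi1, Srebf1, Acacb and Mlxipl lie inside the annotated gene, before an internal start. So does the only window of Acaca, at chr11:84195188-84195437 in a gene that starts at 84129672. Its letters do not describe the sequence before that gene start. Most of the window of Fads2 also lies inside its gene.

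The question of how diabetes changed these transcripts was addressed in all 40 libraries, with the 4 treatments as a term in the model. All 32 genes passed the filter of a mean of at least 10 counts. At an adjusted p under 0.05 over all genes, 11 of the 32 differed between Akita and WT mice, where 22.8% of all 17769 genes tested did. Lower in Akita mice were 8 genes (11.8% of all genes), namely Idi1, Fads2, Fasn, Acaca, Mvd, Srebf1, Scd1 and Sc5d. Higher were 3 genes (11.0% of all genes), namely Acacb, Elovl6 and Fdft1. The median log2 fold change of the 32 was -0.005, beside -0.0215 over all genes. Of the 32, 7 were higher in Akita mice in each of the 4 treatments and 10 were lower in each, with the sign mixed in 15. These 4 contrasts share no library, and 40% of the 16406 genes tested in all of them kept their sign in the same way.

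**Figure D1:**
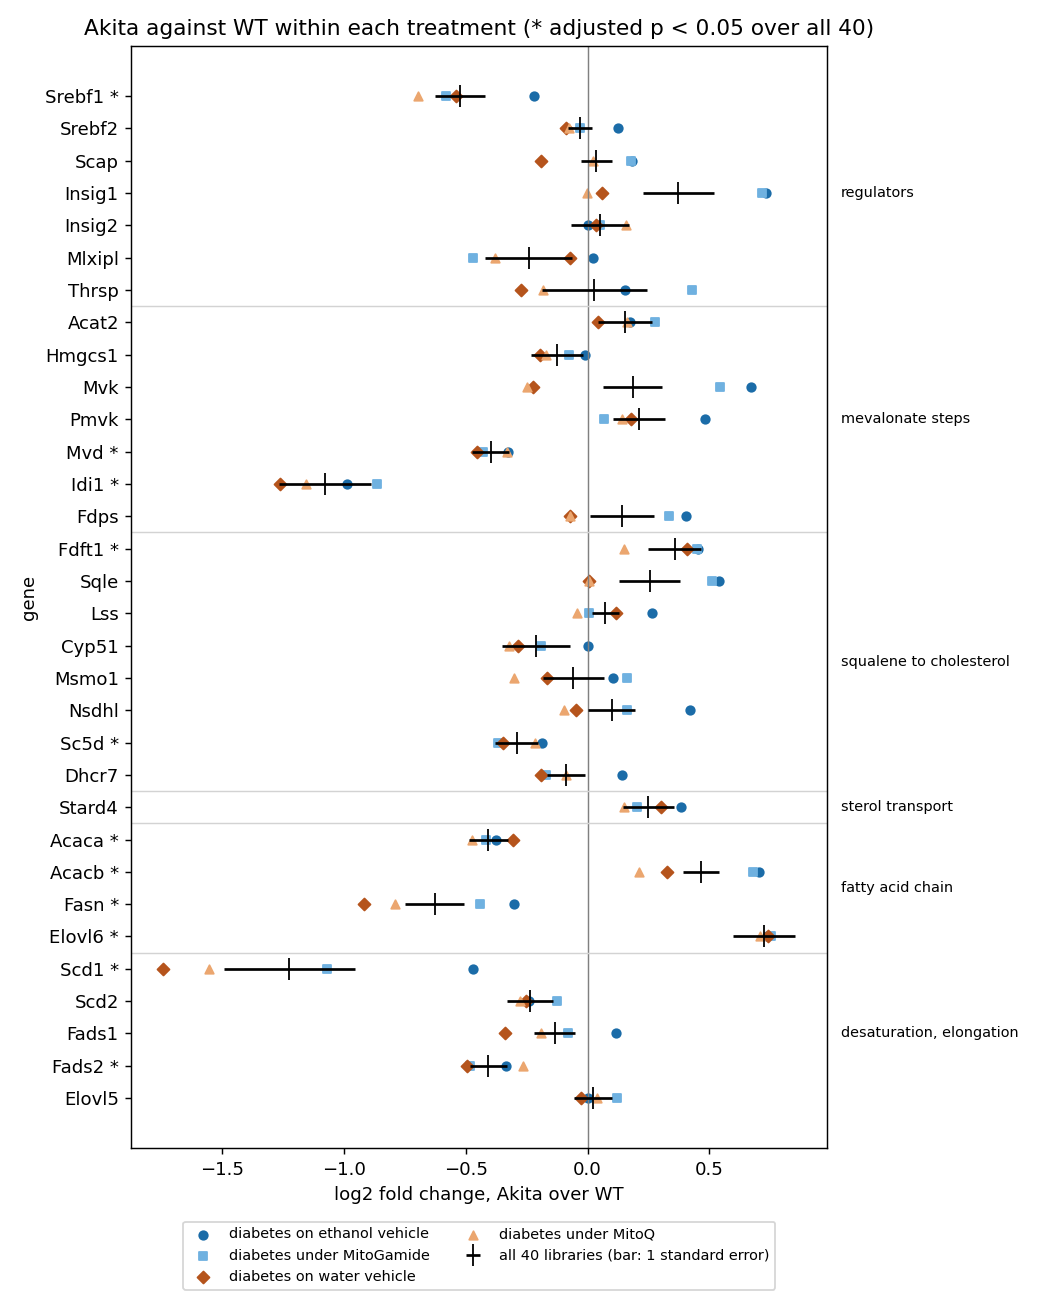
Log2 fold change of Akita over WT mice for the 32 genes, ordered by role, in each of the 4 treatments (coloured points) and in all 40 libraries (black mark with a bar of 1 SE). Idi1 and Scd1 lie farthest to the left and Elovl6 farthest to the right, with its 4 points within 0.71 to 0.75.

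Among the regulators, Srebf1, which encodes SREBP-1, was lower in Akita mice by a log2 fold change of -0.52 (SE 0.10, adjusted p = 0.000157) over the 40 libraries. Srebf1 levels were 37.2, 49.1, 29.2, 43.5 and 36.6 CPM in WT mice on MitoQ and 23.8, 25.5, 25.5, 20.5 and 25.7 CPM in Akita mice on MitoQ. On the ethanol vehicle they were 58.9, 43.3, 23.3, 26.4 and 47.02 CPM in WT mice and 37.1, 37.4, 28.4, 26.8 and 38.3 CPM in Akita mice. The groups did not overlap under MitoQ (as for 2.93% of all genes) and overlapped on ethanol, and each of the 20 Akita libraries lay below the median of the WT group on its own treatment. Within single treatments edgeR on all 10 libraries gave no call for Srebf1, with log2 fold changes from -0.69 under MitoQ to -0.22 on ethanol.

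Srebf2, which encodes the SREBP form that favours cholesterol genes, had a log2 fold change of -0.03 (SE 0.05, adjusted p = 0.727), and Scap, the SREBP escort, 0.04 (SE 0.06, adjusted p = 0.759). Insig2 was at 0.05 (SE 0.12, adjusted p = 0.827). Mlxipl was at -0.24 (SE 0.18, adjusted p = 0.363), and at -0.09 (adjusted p = 0.73) without the libraries that stood apart. Values of Mlxipl by treatment ran from -0.47 under MitoGamide to 0.02 on ethanol. Insig1, a retention protein that is itself a target of SREBP, was at 0.37 (SE 0.15, adjusted p = 0.06115) over all 40 libraries, and passed the test in the ethanol arm alone. Insig1 levels on the ethanol vehicle were 44.9, 40.7, 24.4, 27.4 and 37.8 CPM in WT mice and 72.98, 59.6, 59.5, 31.8 and 63.2 CPM in Akita mice. Under MitoGamide they were 32.99, 37.5, 30.8, 41.8 and 49.2 CPM in WT mice and 57.99, 78.2, 67.1, 33.1 and 73.5 CPM in Akita mice. In both treatments 4 of the 5 Akita libraries exceeded every WT library and 1 did not. The log2 fold change was 0.73 (SE 0.21, adjusted p = 0.0278) on ethanol and 0.72 (SE 0.20, adjusted p = 0.03435) under MitoGamide, beside 0.06 on water and -0.0008 under MitoQ, and on water levels were 16.2 to 43.7 CPM in WT and 15.9 to 38.98 CPM in Akita mice. The difference between both vehicles was 0.67 (SE 0.42, adjusted p = 1) and did not pass the test. In the ethanol contrast the Insig1 call was lost without Akita replicate 1, 2 or 5 or WT replicate 3 or 4, with values of 0.62 to 0.89 over the 10 fits, and under MitoGamide in 6 of 10 fits (0.62 to 0.87). Without the 2 libraries with brown fat markers Insig1 over the remaining 38 was 0.47 (adjusted p = 0.01755).

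Thrsp, a lipogenic cofactor whose transcript follows feeding and thyroid hormone, was the lowest of the 32 and ranged from 0.638 to 9.54 CPM. Its 2 highest libraries were WT water replicate 1 (9.54 CPM) and WT MitoQ replicate 4 (9.32 CPM), the libraries with brown fat markers. The log2 fold change of Thrsp was 0.03 (SE 0.22, adjusted p = 0.954) with them and 0.44 (adjusted p = 0.0273) without them.

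In the mevalonate pathway, 2 of 7 enzymes, Idi1 and Mvd, were lower in Akita mice over the 40 libraries, where 11.8% of all genes were. Idi1, the isomerase that converts isopentenyl to dimethylallyl diphosphate, lay at chr13:8885501-8892451 (GRCm38) and had a log2 fold change of -1.08 (SE 0.19, adjusted p = 2.78e-05), a level in Akita mice of 47.4% of that in WT mice. Idi1 levels on the ethanol vehicle were 115, 129.9, 52.7, 64.1 and 94.5 CPM in WT mice and 58.02, 55.8, 33.8, 24.5 and 55.01 CPM in Akita mice. Under MitoGamide they were 81.1, 71.00, 77.2, 113 and 133 CPM in WT mice and 58.2, 56.2, 61.9, 54.4 and 23.2 CPM in Akita mice, and on water 95.5, 25.3, 30.1, 39.97 and 107 and 37.96, 12.4, 28.8, 26.4 and 19.01 CPM. In these 3 treatments WT levels spread more widely than those of Akita mice, and the groups were apart only under MitoGamide. All 20 Akita libraries lay below the WT median of their own treatment. Without the 2 libraries with brown fat markers Idi1 over the remaining 38 was -0.92 (adjusted p = 0.000178). The log2 fold change was -0.99 (SE 0.27, adjusted p = 0.024) on ethanol, -0.87 (SE 0.25, adjusted p = 0.038) under MitoGamide, -1.26 (SE 0.44, adjusted p = 0.394) on water and -1.16 (SE 0.40, adjusted p = 0.3135) under MitoQ. The call on ethanol was lost without Akita replicate 3 or WT replicate 1 or 2 (-1.13 to -0.82 over the 10 fits), and that under MitoGamide in 6 of 10 fits (-0.95 to -0.69). A noncoding gene on the opposite strand, Gm48574, covers 9.22% of the exon bases of Idi1, and how strand was used in counting was not given in the sources used here.

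Mvd, the decarboxylase that yields isopentenyl diphosphate, had a log2 fold change of -0.40 (SE 0.08, adjusted p = 0.000134). Mvd levels were 28.7, 28.5, 25.9, 26.2 and 24.9 CPM in WT and 23.6, 22.7, 18.4, 17.6 and 23.3 CPM in Akita mice on the ethanol vehicle, which did not overlap. In the other 3 treatments the groups overlapped, with 18.9 to 29.9 and 10.6 to 22.02 CPM under MitoGamide, 18.9 to 31.3 and 15.01 to 20.7 CPM on water and 16.4 to 26.5 and 13.5 to 21.8 CPM under MitoQ (WT first). The call on ethanol was -0.33 (SE 0.09, adjusted p = 0.0277) and held in 6 of 10 fits with a library left out (-0.37 to -0.26), being lost without Akita replicate 3 or 4 or WT replicate 1 or 2.

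Mvk, mevalonate kinase, moved the other way on ethanol, where levels were 6.28, 6.85, 5.36, 4.81 and 6.14 CPM in WT and 12.6, 10.3, 7.70, 5.79 and 9.91 CPM in Akita mice. The log2 fold change was 0.67 (SE 0.18, adjusted p = 0.0228) there, 0.54 (SE 0.20, adjusted p = 0.0822) under MitoGamide, -0.22 on water and -0.25 under MitoQ. The call was lost without Akita replicate 1 or 2 or WT replicate 4 (0.53 to 0.81), and the difference between vehicles was 0.89 (SE 0.32, adjusted p = 1). Acat2, the cytosolic thiolase that starts the pathway, passed the test only under MitoGamide, at 0.28 (SE 0.08, adjusted p = 0.0408), and kept the call in 3 of 10 fits with a library left out (0.24 to 0.31). Hmgcs1, the synthase of the next step and the most abundant of the 32 per exon length, was at -0.13 (SE 0.11, adjusted p = 0.456) over the 40 libraries, with 373 to 443 CPM in WT and 339 to 460.2 CPM in Akita mice on ethanol. The kinase Pmvk was at 0.21 and the farnesyl diphosphate synthase Fdps at 0.14, and neither passed the test in any of the 12 fits on all libraries. Without the 2 libraries with brown fat markers Pmvk passed, at 0.29 (adjusted p = 0.0433). Gm43738, on the same strand, covers 26.7% of the exon bases of Fdps, and Gm48342, on the opposite strand, 12.1% of those of Hmgcs1.

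From squalene to cholesterol, 2 of 8 enzymes passed the test over the 40 libraries, near the 22.8% of all genes, in opposite directions. Fdft1, squalene synthase, was higher in Akita mice at 0.36 (SE 0.11, adjusted p = 0.0124). Fdft1 levels on the ethanol vehicle were 17.9, 19.4, 11.9, 11.5 and 16.8 CPM in WT and 23.8, 23.8, 21.4, 12.7 and 23.2 CPM in Akita mice. They were 10.2 to 20.2 CPM in WT and 13.6 to 27.8 CPM in Akita mice on water. The groups overlapped in every treatment, and 2 of the 20 Akita libraries lay below the WT median of their treatment. Exons of Ctsb, a lysosomal protease gene on the opposite strand, cover 18.3% of the exon bases of Fdft1. The call of Fdft1 was lost with the ethanol groups or the MitoGamide groups left out, at 0.35 (adjusted p = 0.0559) and 0.34 (adjusted p = 0.0671). Sc5d, the desaturase of a late step, was lower at -0.29 (SE 0.09, adjusted p = 0.0133). It passed within 1 treatment, MitoGamide, at -0.37 (SE 0.11, adjusted p = 0.0397). Sc5d levels there were 32.9 to 38.4 CPM in WT and 21.2 to 32.9 CPM in Akita mice. The MitoGamide call held in 2 of 10 fits with a library left out (-0.45 to -0.29). Over the 40 libraries less the 2 with brown fat markers Sc5d was at -0.24 (adjusted p = 0.0517). Its call over the 40 libraries was lost likewise with the ethanol groups or the MitoGamide groups left out, and without the filter on low counts. The call of Sc5d held in 6 of 10 other settings.

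The other 6 enzymes of this stretch did not pass over the 40 libraries. The epoxidase Sqle, which catalyses an oxygen-requiring step that limits the rate, was at 0.25 (SE 0.13, adjusted p = 0.147), with 0.54 on ethanol and 0.51 under MitoGamide beside 0.01 on water and 0.01 under MitoQ. Without the 2 libraries with brown fat markers Sqle passed, at 0.35 (adjusted p = 0.0405). The cyclase Lss was at 0.07, the demethylase Cyp51 at -0.21, the oxidase Msmo1 at -0.06, the dehydrogenase Nsdhl at 0.10 and the reductase Dhcr7 at -0.09. Stard4, which carries cholesterol between membranes, was at 0.25 (SE 0.10, adjusted p = 0.082) over the 40 libraries and was called on ethanol at 0.38 (SE 0.10, adjusted p = 0.0239). Stard4 levels there were 50.4 to 62.4 CPM in WT and 57.4 to 85.9 CPM in Akita mice, and the call was lost without Akita replicate 1, 2 or 5 or WT replicate 3 or 4 (0.32 to 0.46). Stard4 passed without the libraries that stood apart, at 0.25 (adjusted p = 0.0221), and without those with brown fat markers, at 0.30 (adjusted p = 0.0441).

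**Figure D2:**
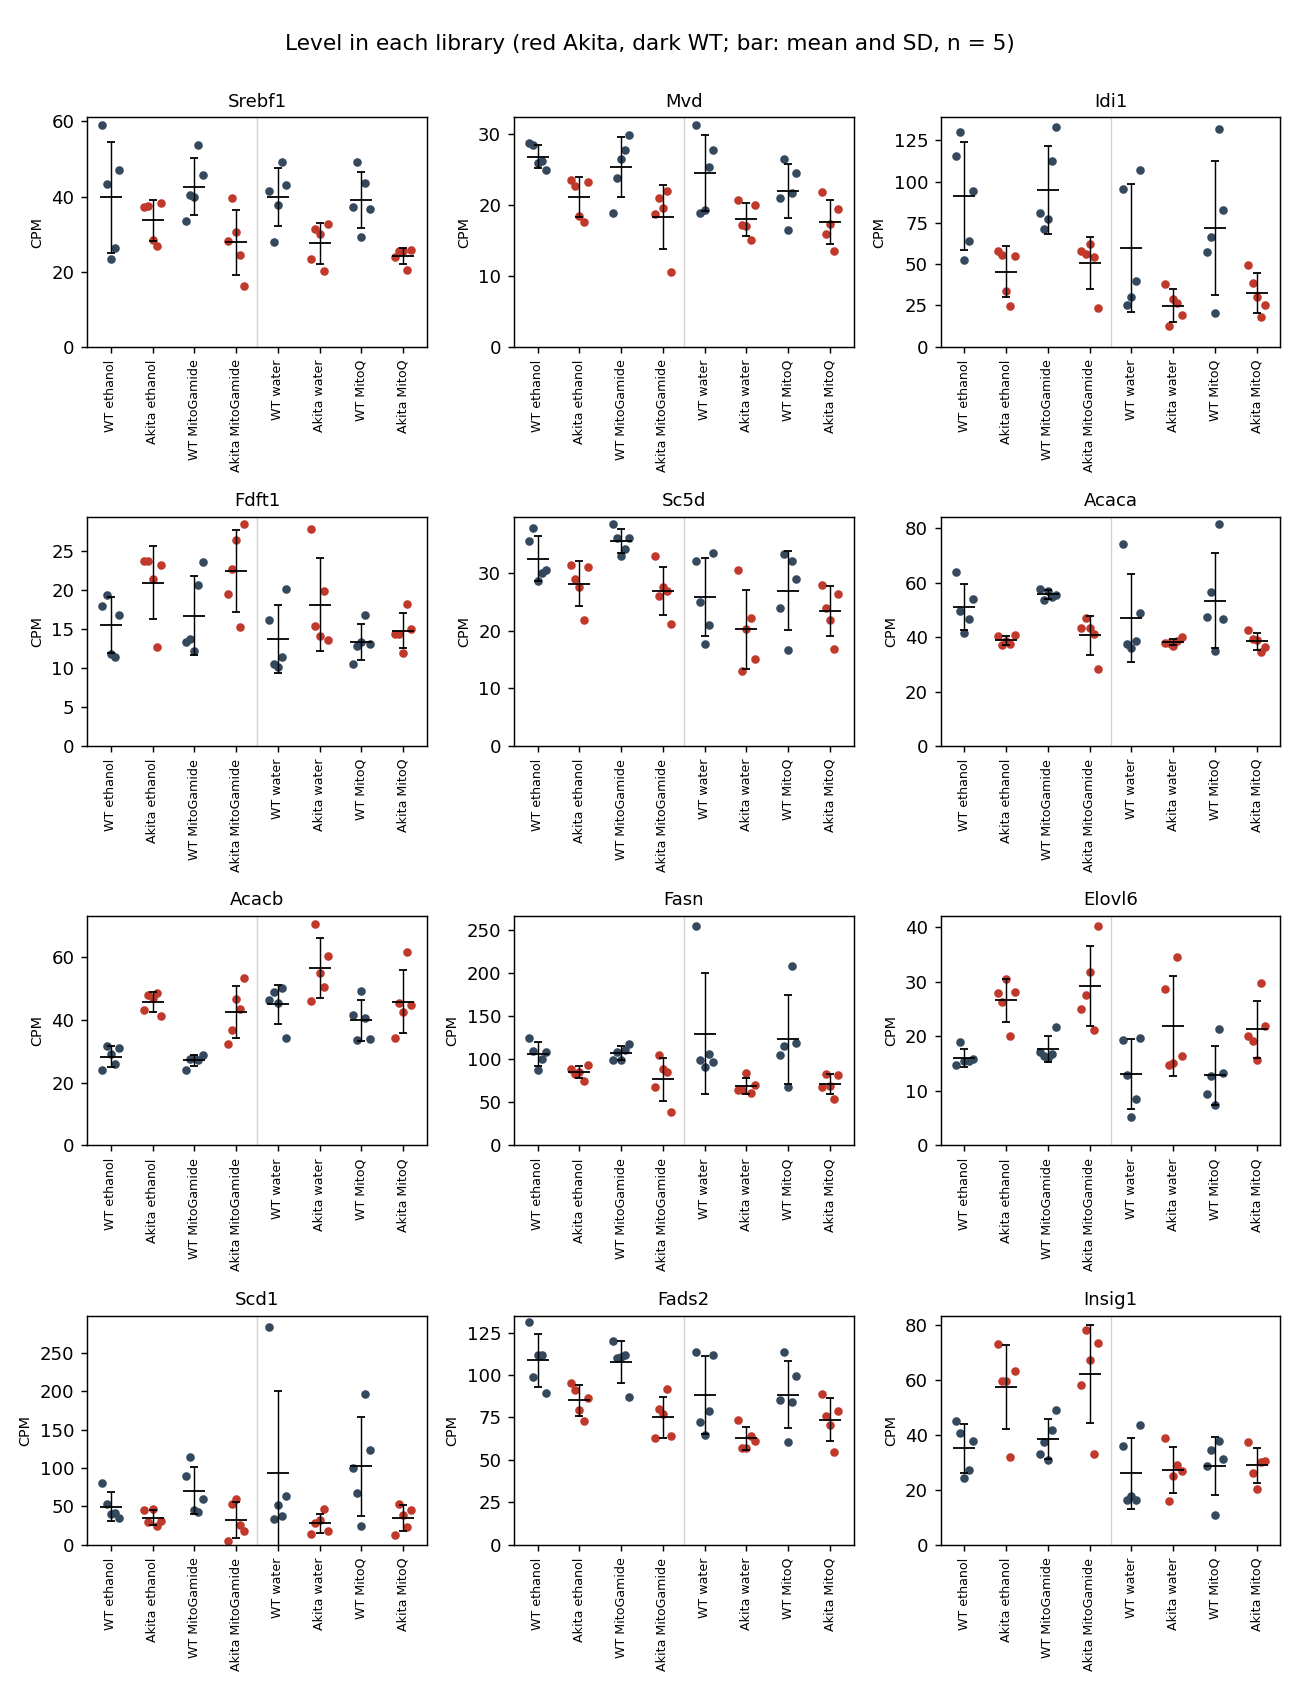
CPM in each library for the 11 genes called over the 40 libraries and for Insig1, by group (red Akita, dark WT, ethanol arm left and water arm right of the line; bars give the mean and SD, n = 5, and are clipped at 0). WT water replicate 1 stands alone at 255 CPM of Fasn and 283 CPM of Scd1.

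All 4 genes of the fatty acid chain passed the test over the 40 libraries, as did 22.8% of all genes, in opposite directions for the 2 carboxylase genes. Acaca encodes the cytosolic acetyl-CoA carboxylase, which makes malonyl-CoA for synthesis. Acacb encodes the form at the mitochondrial outer membrane, whose malonyl-CoA restrains fatty acid oxidation. Acaca was lower in Akita mice at -0.41 (SE 0.08, adjusted p = 0.000129) and Acacb higher at 0.47 (SE 0.07, adjusted p = 5.38e-06).

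Acacb levels on the ethanol vehicle were 23.96, 31.7, 29.03, 25.9 and 30.97 CPM in WT and 43.2, 48.05, 46.96, 48.6 and 41.4 CPM in Akita mice. Under MitoGamide they were 24.1, 27.5, 27.9, 27.3 and 28.9 CPM in WT and 32.4, 36.8, 46.8, 43.4 and 53.4 CPM in Akita mice. The groups were apart in both, and the log2 fold change was 0.70 (SE 0.08, adjusted p = 0.0001155) and 0.68 (SE 0.12, adjusted p = 0.00523). On water they overlapped, at 46.5, 48.8, 45.3, 50.1 and 34.4 CPM in WT and 45.9, 70.7, 54.9, 50.4 and 60.3 CPM in Akita mice. The log2 fold change was 0.33 (SE 0.15, adjusted p = 0.6575) on water and 0.21 (SE 0.16, adjusted p = 0.835) under MitoQ. Both calls of the ethanol arm held with each library left out, at 0.65 to 0.75 and 0.59 to 0.76, and the difference between vehicles was 0.38 (SE 0.17, adjusted p = 1).

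Acaca levels were 63.9, 49.6, 41.7, 46.6 and 54.02 CPM in WT and 40.6, 37.2, 38.6, 37.5 and 40.9 CPM in Akita mice on ethanol, and 57.9, 53.7, 57.1, 54.9 and 55.4 and 43.3, 47.1, 43.5, 41.2 and 28.5 CPM under MitoGamide. Neither pair overlapped, with log2 fold changes of -0.37 (SE 0.09, adjusted p = 0.01625) and -0.42 (SE 0.12, adjusted p = 0.0354). On water WT replicate 1 stood at 74.3 CPM, above its group's other values of 35.9 to 48.9 CPM, and Akita mice at 36.7 to 40.01 CPM. Under MitoQ, WT replicate 4 was the highest of all 40 at 81.6 CPM. Without these 2 libraries with brown fat markers Acaca over the remaining 38 was -0.29 (adjusted p = 0.0003735). The call on ethanol held in all 10 fits with a library left out (-0.44 to -0.29), and that under MitoGamide in 3 (-0.47 to -0.31). Both calls were lost with all 40 libraries in 1 fit of group means.

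As a description, chosen after the values were seen and given without a test, the CPM ratio of Acacb to Acaca had a median of 0.573 in WT and 1.22 in Akita mice on the ethanol vehicle. Under MitoGamide the medians were 0.497 and 1.06, on water 1.26 and 1.49 and under MitoQ 0.727 and 1.16. Ratios of WT and Akita mice were apart within both treatments of the ethanol arm (0.375 to 0.696 against 1.01 to 1.29 on vehicle) and overlapped in the water arm.

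**Figure D3:**
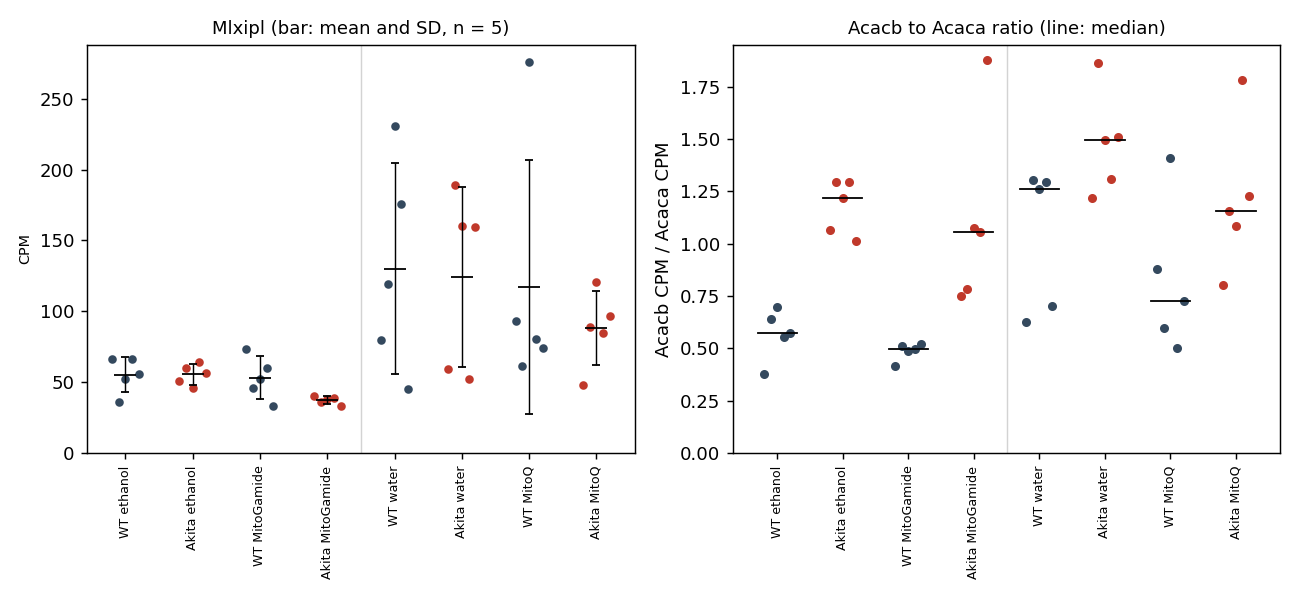
Left, CPM of Mlxipl in each library by group (bars give the mean and SD, n = 5). Right, the ratio of Acacb CPM to Acaca CPM in each library (lines give the median), which ran from 0.375 in a WT library on ethanol to 1.88 in an Akita library on MitoGamide.

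Fasn, fatty acid synthase, lay at chr11:120805846-120824547 and was lower in Akita mice at -0.63 (SE 0.12, adjusted p = 0.000106), with all 20 Akita libraries below the WT median of their treatment. Fasn levels on water were 255, 99.7, 91.5, 106 and 97.00 CPM in WT and 64.2, 64.5, 84.4, 60.3 and 70.5 CPM in Akita mice. On ethanol they were 124, 109.8, 87.1, 100.2 and 109 CPM in WT and 88.5, 83.2, 84.7, 74.4 and 93.5 CPM in Akita mice. The groups were apart on water (as for 2.53% of all genes), where WT replicate 1 was far above the others, and overlapped on ethanol. The log2 fold change on water was -0.92 (SE 0.28, adjusted p = 0.278) with this library and -0.50 (adjusted p = 0.314) without it. The call on ethanol, -0.30 (SE 0.09, adjusted p = 0.0361), held in 3 of 10 fits with a library left out (-0.37 to -0.24). Over the libraries without brown fat markers Fasn was -0.44 (adjusted p = 0.0001365), and without those that stood apart -0.59 (adjusted p = 0.000257).

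Elovl6, which lengthens the palmitate made by fatty acid synthase, was higher in Akita mice at 0.72 (SE 0.13, adjusted p = 3.06e-05), opposite to Fasn. Elovl6 levels on the ethanol vehicle were 14.7, 18.9, 15.4, 15.4 and 15.9 CPM in WT and 27.95, 26.3, 30.5, 20.1 and 28.1 CPM in Akita mice. Under MitoGamide they were 17.1, 16.5, 15.96, 16.8 and 21.8 and 25.03, 27.6, 31.8, 21.2 and 40.3 CPM, and on water 19.4, 12.98, 5.29, 8.59 and 19.6 and 28.8, 14.8, 15.1, 34.6 and 16.4 CPM, WT first. The groups were apart on ethanol and overlapped in the other treatments, and none of the 20 Akita libraries lay below the WT median of its treatment. Of the 32 genes, Elovl6 had the smallest range over the 4 treatments, at 0.74 (SE 0.11, adjusted p = 0.000592) on ethanol, 0.75 (SE 0.16, adjusted p = 0.00969) under MitoGamide, 0.74 (SE 0.38, adjusted p = 0.75) on water and 0.71 (SE 0.25, adjusted p = 0.339) under MitoQ. Both calls of the ethanol arm held with each library left out, and both were lost with all 40 libraries in 1 fit of group means.

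Of the 4 desaturases and the elongase Elovl5, Scd1 and Fads2 were lower in Akita mice, where 11.8% of all genes were, and Scd2, Fads1 and Elovl5 did not pass. Scd1, stearoyl-CoA desaturase, had a log2 fold change of -1.22 (SE 0.27, adjusted p = 0.000633), the largest decrease of the 32 with all 40 libraries but not without the 2 with brown fat markers, where that of Idi1 was larger. Scd1 levels on water were 283, 33.7, 52.04, 37.6 and 63.1 CPM in WT and 14.8, 27.95, 31.9, 47.05 and 18.6 CPM in Akita mice. Under MitoQ they were 99.4, 67.6, 24.01, 196 and 123 CPM in WT and 12.9, 53.8, 39.5, 23.5 and 44.8 CPM in Akita mice. WT water replicate 1 and WT MitoQ replicate 4 were the highest of all 40, and the groups overlapped in every treatment. Within single treatments edgeR on all 10 libraries did not call Scd1, with values from -1.74 on water to -0.47 on ethanol. The value on water was -0.72 (adjusted p = 0.867) without WT replicate 1, and that under MitoQ, -1.55, was -1.19 (adjusted p = 0.501) without WT replicate 4. Over the libraries without brown fat markers it was -0.86 (adjusted p = 0.00365).

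The 2 libraries that held the highest Scd1, Fasn, Acaca and Thrsp also held the highest brown fat markers. These summed to 18.47 CPM in WT water replicate 1 and 7.841 CPM in WT MitoQ replicate 4, and to at most 0.7534 CPM in the other 38. Ucp1 was at 0 in 25 libraries, Cidea in 17 and Otop1 in 34, and none of the 3 could be tested. Of 10 adipocyte markers, 4 could be tested over the 40 libraries, of which Car3 was lower in Akita mice at -2.11 (SE 0.28, adjusted p = 2.27e-07) and Fabp4 higher at 0.64 (SE 0.11, adjusted p = 3.22e-05). Adipoq was at 0 in 21 libraries and Lep in 33. The adipocyte markers summed to 24.19 to 93.03 CPM in WT and 19.99 to 61.66 CPM in Akita mice on water, to 13.73 to 63.78 and 29.08 to 57.95 CPM under MitoQ, to 24.07 to 54.09 and 22.77 to 38.01 CPM on ethanol and to 32.96 to 66.63 and 27.27 to 39.47 CPM under MitoGamide. Summed liver markers reached 530.4 CPM in WT water replicate 1 and at most 83.45 CPM in the other 39 libraries. The log2 fold changes of Scd1, Fasn and Acaca were smaller without the 2 libraries and all 3 kept their call over the 40 libraries less these 2, and the part of other cells in their levels was not otherwise tested.

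**Figure D4:**
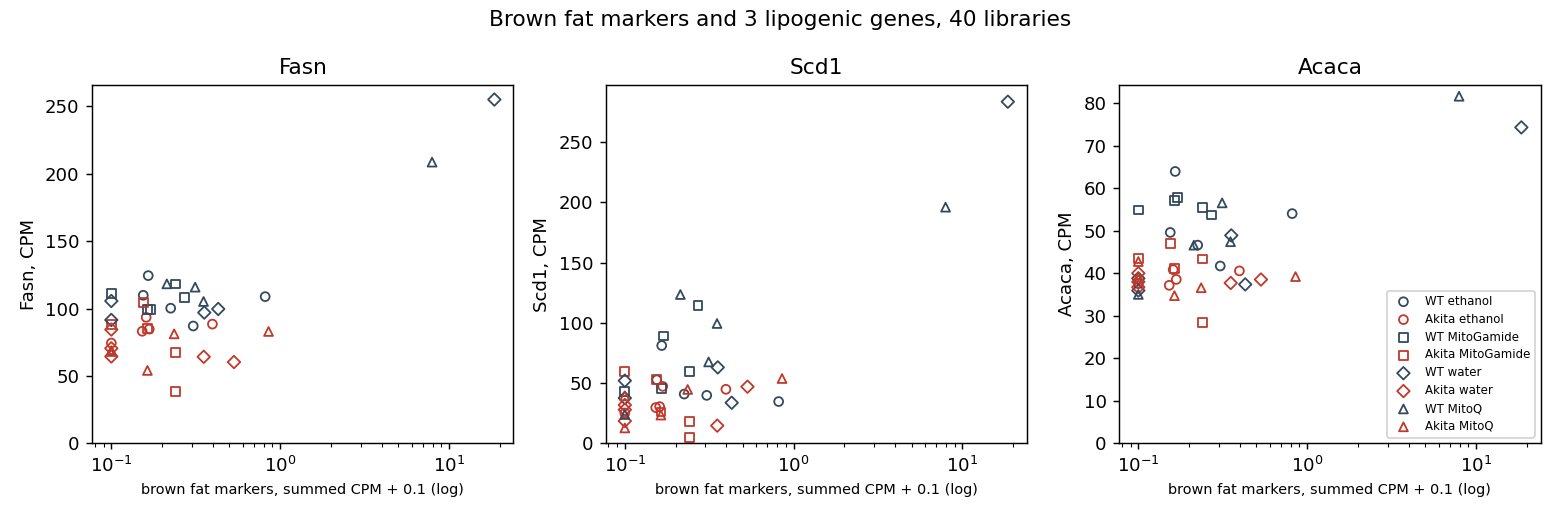
CPM of Fasn, Scd1 and Acaca in each of the 40 libraries against the summed CPM of Ucp1, Cidea and Otop1 plus 0.1 on a log axis (red Akita, dark WT, marker shape for treatment). WT water replicate 1 and WT MitoQ replicate 4 lie apart to the right and at the top of each panel.

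Fads2, the delta-6 desaturase of polyunsaturated fatty acids, was lower at -0.41 (SE 0.08, adjusted p = 6.87e-05). Fads2 levels under MitoGamide were 120.3, 109.8, 111, 112 and 87.02 CPM in WT and 62.8, 80.3, 77.1, 91.5 and 63.95 CPM in Akita mice, and on ethanol 131, 99.1, 112, 112 and 89.3 and 95.4, 91.04, 79.4, 73.03 and 86.2 CPM. The groups overlapped by 1 library or more in both, and 19 of the 20 Akita libraries were below the WT median of their treatment. The calls were -0.48 (SE 0.12, adjusted p = 0.02195) under MitoGamide and -0.33 (SE 0.10, adjusted p = 0.0359) on ethanol, held in 6 and 4 of 10 fits with a library left out (-0.57 to -0.43 and -0.40 to -0.26). Its neighbour Fads1, the delta-5 desaturase, was at -0.14 (SE 0.08, adjusted p = 0.274), Scd2 at -0.24 (SE 0.09, adjusted p = 0.0655) and the elongase Elovl5 at 0.02 (SE 0.08, adjusted p = 0.895). Scd2 passed without the libraries that stood apart, at -0.26 (adjusted p = 0.0461).

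On the ethanol vehicle 10 of the 32 genes differed between Akita and WT mice, beside 16.4% of all 17747 genes, with 5 higher (8.18%) and 5 lower (8.22%). Higher were Insig1, Mvk, Stard4, Acacb and Elovl6, and lower were Mvd, Idi1, Acaca, Fasn and Fads2. Under MitoGamide 8 differed, beside 14.3% of all 16674 genes, with 4 higher (7.71%), Insig1, Acat2, Acacb and Elovl6, and 4 lower (6.6%), Idi1, Sc5d, Acaca and Fads2. WT and Akita groups did not overlap for 4 genes on ethanol (13% of all genes) and 3 under MitoGamide (12.4%). The ethanol count was 6 without Akita replicate 1 or 2 or WT replicate 1 or 4, where 2170 to 2405 of all genes were called. The MitoGamide count was 2 without WT replicate 1, 3 or 4, 3 without WT replicate 2, 4 without Akita replicate 4, and 5 without Akita replicate 2 or 3, and in these fits the calls over all genes were also fewer, at 1248 to 1963. With all 40 libraries in 1 fit of group means, 1 of the 32, Acacb, was called on ethanol, among 844 genes called in all. In that fit 3 were called under MitoGamide, among 2011, and 1 on water, Fasn at -0.92 (adjusted p = 0.0223), among 547. Without Akita MitoGamide replicate 5, which stood apart, 10 of the 32 were called under MitoGamide, among 2822 genes in all, with Mvk at 0.68 (adjusted p = 0.00992) and Sqle at 0.68 (adjusted p = 0.00584) added.

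In the water arm edgeR on the 10 libraries of each treatment called none of the 32 for diabetes, where it called 0.552% of all genes on water and 0.557% under MitoQ. At an unadjusted p under 0.05 there were 7 of the 32 on water, beside 1384 of all 18304 genes, and 6 under MitoQ, beside 1644 of all 18143. DESeq2 called 0 of the 32 on water, among 354 genes called in all, and 2 under MitoQ, Srebf1 and Scd1, among 415. Without WT MitoQ replicate 3, which stood apart from the other libraries, edgeR called 4 of the 32 under MitoQ, among 270 genes in all. Each was lower in Akita mice. Srebf1 was at -0.79 (adjusted p = 0.00704) and Idi1 at -1.39 (adjusted p = 0.0383). Fasn was at -0.95 (adjusted p = 0.041) and Scd1 at -1.80 (adjusted p = 0.0394). That fit still held WT MitoQ replicate 4, with brown fat markers. With replicate 4 left out instead, 0 of the 32 were called under MitoQ, among 57 genes in all. The difference of the diabetes effect between both vehicles passed for none of the 32 and for 0.0% of all genes in edgeR, with 3 of the 32 at an unadjusted p under 0.05, beside 767 of all 18050 genes, and 0 by DESeq2, which called 2 genes in all. Of the 32 differences, 30 were above 0, with a median of 0.267 beside 0.0064 over all genes. This is a description of genes that share their libraries. Among those libraries was WT water replicate 1, with brown fat markers. Without it the decreases of Fasn and Scd1 on water were smaller, as given above.

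The question of what the 2 compounds changed was addressed within each genotype against the vehicle of the arm. MitoGamide in Akita mice changed 1 of the 32, beside 1.26% of all 17051 genes (0.422% lower). That gene was Mlxipl, at chr5:135089890-135138382, which encodes the glucose-responsive factor ChREBP. Its levels were 50.96, 59.7, 45.8, 64.5 and 56.1 CPM in Akita mice on vehicle and 40.2, 36.2, 37.9, 38.6 and 33.1 CPM in Akita mice on MitoGamide. Every MitoGamide library was below every vehicle library, at a log2 fold change of -0.57 (SE 0.10, adjusted p = 0.02985). The groups were apart, in either direction, for 7.5% of all genes. Summed endothelial markers were also apart in this contrast, at 128.9 to 144 CPM on vehicle and 156.9 to 222.4 CPM on MitoGamide, with 2 of 4 higher, Cdh5 at 0.55 (SE 0.12, adjusted p = 0.0478) and Ehd3 at 0.47 (SE 0.09, adjusted p = 0.0407), and the sums of the other cell type lists overlapped. Their part in the Mlxipl difference was not tested. In WT mice Mlxipl levels overlapped, at 66.5, 35.9, 52.03, 66.5 and 55.5 CPM on vehicle and 73.5, 46.04, 52.4, 59.9 and 32.9 CPM on MitoGamide, with a log2 fold change of -0.07 (SE 0.19, adjusted p = 0.939). Between genotypes the MitoGamide effect on Mlxipl differed by -0.50 (SE 0.24, adjusted p = 0.598), which did not pass. The call in Akita mice was lost without any 1 of the 5 vehicle libraries or without MitoGamide replicate 2 or 4, with values of -0.62 to -0.51 over the 10 fits, and it was -0.52 (adjusted p = 0.0195) without MitoGamide replicate 5. With all 40 libraries in 1 fit it was also lost (adjusted p = 0.514). Over all genes this contrast gave 0 to 4 calls without any 1 vehicle library, 13 to 802 without any 1 MitoGamide library and 1022 by DESeq2. In the water arm Mlxipl was more variable, with 44.96 to 231 CPM in WT mice on water and 61.1 to 276 CPM in WT mice on MitoQ. Both upper ends came from libraries that stood apart, WT water replicate 3 and WT MitoQ replicate 3. The other WT libraries on MitoQ held 61.1 to 93.3 CPM.

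MitoGamide in WT mice and MitoQ in either genotype changed none of the 32 in edgeR, where each of these contrasts called 0.0% of all genes. At an unadjusted p under 0.05 there were 3 of the 32 for MitoGamide in WT mice, beside 1841 of all 17395 genes, and 0 for MitoQ in Akita mice (363 of 18496) and in WT mice (575 of 17881), and DESeq2 called 0 of the 32 in each, among 73, 0 and 2 genes called in all. Effects of MitoGamide and of MitoQ did not differ between genotypes for any of the 32 at the threshold (edgeR, 0.0% of all genes in both), with 1 and 0 of the 32 at an unadjusted p under 0.05, beside 1435 of all 17256 and 207 of all 18225 genes, and 0 by DESeq2. Among genes with diabetes calls, the log2 fold change was -0.09 (SE 0.12, adjusted p = 0.681) for Acacb, 0.18 (SE 0.28, adjusted p = 0.755) for Idi1 and 0.14 (SE 0.16, adjusted p = 0.644) for Elovl6 with MitoGamide in Akita mice. With MitoQ in Akita mice it was 0.38 (SE 0.31, adjusted p = 0.9993) for Idi1 and 0.05 (SE 0.14, adjusted p = 0.9993) for Fasn.

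**Figure D5:**
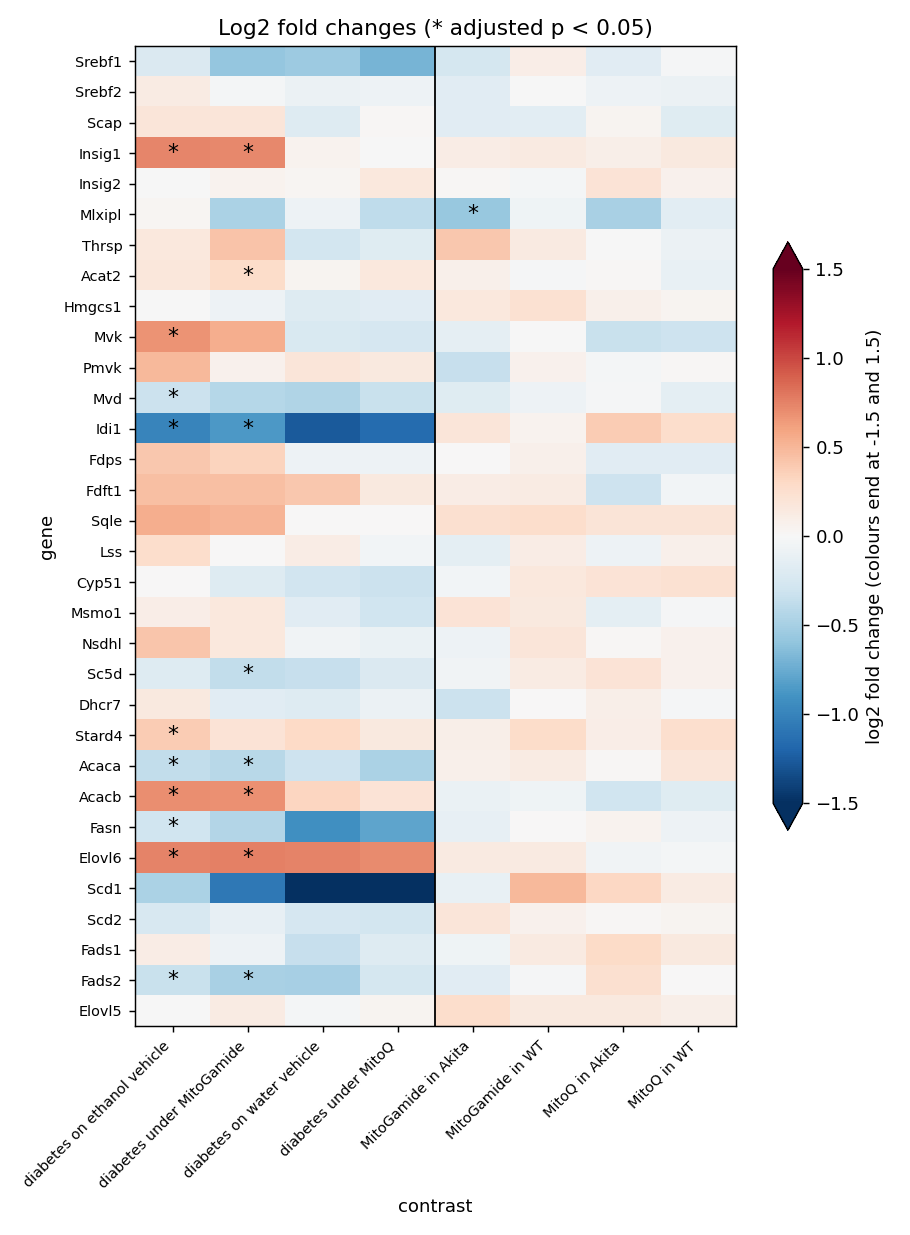
Log2 fold changes of the 32 genes in the 4 diabetes contrasts (left of the line, Akita over WT) and the 4 treatment contrasts (right, compound over vehicle), with a star at an adjusted p under 0.05. The stars of the diabetes contrasts lie in the ethanol arm, 10 on vehicle and 8 under MitoGamide, and a single star stands to the right of the line, for Mlxipl.

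Further genes of the same pathways, from lists made with earlier results of these data known, were read in the same fit. Of 8 other sterol synthesis and ketone enzymes, 2 were lower in Akita mice over the 40 libraries, the dolichol synthase subunit Dhdds at -0.20 (SE 0.05, adjusted p = 0.0027) and the mitochondrial thiolase Acat1 at -0.59 (SE 0.12, adjusted p = 0.0001575). Of 12 genes of sterol sensing and handling, 4 were lower and 1 was higher. Lower were Mbtps1, the protease that cleaves SREBP in the Golgi, at -0.25 (SE 0.03, adjusted p = 1.61e-07), the cholesterol acyltransferase Soat1 at -0.31 (SE 0.07, adjusted p = 0.000805), the sterol receptor Nr1h3 at -0.25 and the ester hydrolase Nceh1 at -0.25. The sterol hydroxylase Cyp27a1 was higher at 0.49 (SE 0.09, adjusted p = 7.71e-05).

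Of 19 lipogenic genes 17 could be tested, with 5 lower and 2 higher. Me1, malic enzyme, which supplies NADPH for fatty acid synthesis, was lower at -0.82 (SE 0.13, adjusted p = 3.80e-06), as were the acetyl-CoA synthetase Acss2 at -0.37 (SE 0.07, adjusted p = 4.65e-05) and the acetoacetyl-CoA synthetase Aacs at -0.53 (SE 0.10, adjusted p = 0.000121). Fads3 was lower at -0.42 and the elongation reductase Hsd17b12 at -0.29. Elovl2, which elongates polyunsaturated fatty acids, was higher at 0.60 (SE 0.15, adjusted p = 0.00312), and the phosphatidate phosphatase Lpin1 at 0.42 (SE 0.10, adjusted p = 0.000868). The 3 lists held 14 called genes among 37 tested, beside 22.8% of all genes.

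Markers of kidney cell types moved beside these genes. Of 5 proximal tubule markers, Slc34a1 (-0.29) and Lrp2 (-0.38) were lower in Akita mice over the 40 libraries, and the other 3 did not pass. The summed markers were 12010 to 13980 CPM in WT and 8693 to 11430 CPM in Akita mice on ethanol, and 11220 to 11980 and 6189 to 9035 CPM under MitoGamide, with no overlap. They were 7261 to 11930 and 5112 to 10560 CPM on water and 3504 to 11910 and 7412 to 10370 CPM under MitoQ, and overlapped. Of 5 immune markers 3 could be tested and were lower, with Csf1r at -0.71. Summed immune markers were 48.85 to 70.29 CPM in WT and 32.67 to 40.04 CPM in Akita mice on ethanol, 44.23 to 76.84 and 26.68 to 44.2 CPM under MitoGamide and 46.97 to 67.51 and 25.04 to 40.05 CPM on water, with no overlap. Under MitoQ they were 26.15 to 70.75 and 30.91 to 43.7 CPM and overlapped, through WT MitoQ replicate 3 alone. The other WT libraries on MitoQ held 46.58 to 70.75 CPM, above every Akita library on MitoQ. These sums carry no TMM factor, and that of WT MitoQ replicate 3, at 0.505, was the lowest of the 40. Summed collecting duct markers were 68.71 to 101.4 and 107.3 to 183.4 CPM under MitoGamide and the share of mitochondrial counts 24.59 to 27.81% and 28 to 35.4%, also apart, while both overlapped in the other 3 treatments. The part of these markers and of the mitochondrial share in the changes of the 32 genes was not tested.

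Within WT mice on the ethanol vehicle, levels per kb of merged exons spanned from 89.8 ± 7.1 CPM per kb (SD, n = 5) for Hmgcs1 to 1.26 ± 0.19 for Thrsp. Below Hmgcs1 came Fads2 at 32.96 ± 4.8, Acat2 at 32.05 ± 2.1, Idi1 at 26.1 ± 9.4 and Cyp51 at 21.8 ± 4.4 CPM per kb, and neighbours among these 4 differed by less than the larger of their 2 SDs. The carboxylase genes stood side by side at 2.997 ± 0.49 for Acaca and 2.94 ± 0.34 CPM per kb for Acacb, and Fasn stood above them at 9.69 ± 1.3 CPM per kb.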

How the data were processed

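Kidney cortex RNA of individual mice was depleted of ribosomal RNA and sequenced in directional libraries. The authors trimmed reads with Skewer, mapped them to GENCODE mouse transcripts with kallisto 0.46.1 and summed transcripts per gene in R 4.0.2. The deposited values are estimated counts, held as whole numbers with no scaling, and because kallisto apportions ambiguous reads between transcripts, genes with common sequence can share counts. The submitters' processing notes name GRCm38. Positions and exon lengths were taken from the GENCODE M21 annotation of GRCm38.

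Counts were tested with edgeR 4.0.16 (TMM, quasi-likelihood test) in R 4.3.3 where a gene averaged 10 counts or more in the fit, with Benjamini-Hochberg adjustment over all genes tested and a call at an adjusted p under 0.05. Each of 8 contrasts used its own 10 libraries. The common diabetes effect used all 40 with treatment as a term, and 3 differences of effects used 20 libraries each. Each SE was derived from the log2 fold change and the F statistic, as their ratio after taking the root of F. All tests are two-sided. The scripts were tested on simulated data with 200 changed genes, for the diabetes contrasts on ethanol and on water. A log2 change of 1 was recovered for 99% of these on ethanol and 46.5% on water. For a log2 change of 0.5 it was 64% on ethanol and 0% on water.

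The 32 genes, the other lists and the tests were chosen with earlier results of these data known. All 32 genes are accounted for. Statistics are given for genes called in any of 12 fits, and values by library for the 10 called genes with the smallest p over all 40 libraries and the 4 with the smallest p in each contrast with a call. Alternatives were DESeq2 1.42.0, RLE scaling, no filter, the replicate number as a block, all 40 libraries in 1 fit and each library or treatment left out. Leaving out the 5 libraries that stood apart and the 2 with brown fat markers was added after seeing the data. Samples that share a replicate number were not treated as pairs. The podocyte markers are not reported here.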

Additional observations from a re-analysis of the deposited data

Results flagged for a closer look

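Values that stood far from the other 4 of their group were looked for in the 16 genes called in any fit and in the summed adipocyte and brown fat markers, over 144 groups of 5. A value counted where its gap to the nearest other was over 0.71 of the range of its group. This gave 13, where chance flags about 1 in 20 groups, or 7.2. Of these 13, 7 were among 128 groups of gene values and 6 among 16 groups of marker sums. The share flagged was higher among the marker sums.

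WT water replicate 1 gave 4 of the 13. It held 254.91 CPM of Fasn (others 91.5 to 105.6), 283.305 CPM of Scd1 (others 33.7 to 63.1), 18.47 CPM of brown fat markers and 93.03 CPM of adipocyte markers (others 24.19 to 37.81). WT MitoQ replicate 4 held 7.841 CPM of brown fat markers. The other brown fat sums were small, at 0.297 CPM in Akita ethanol replicate 1, 0.7534 CPM in Akita MitoQ replicate 2 and 0.7151 CPM in WT ethanol replicate 5.

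WT MitoQ replicate 3, which stood apart in its correlation with the other libraries, held 275.734 CPM of Mlxipl (others 61.1 to 93.3). Akita MitoGamide replicate 5, another such library, was the lowest of its group for Idi1 at 23.1649 CPM (others 54.4 to 61.9). Akita ethanol replicate 4 was low for Fdft1 at 12.7114 CPM (others 21.4 to 23.8). Elovl6 was high in WT ethanol replicate 2 at 18.9356 CPM (others 14.7 to 15.9) and in WT MitoGamide replicate 5 at 21.8253 CPM (others 15.96 to 17.1), both below or within the range of the Akita groups of their arm.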

How the results depend on the processing

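Of 214 log2 fold changes of called genes under other settings, 185 kept their call, 29 lost it and 0 changed sign. Of 190 with a single library left out, 112 kept it, 78 lost it and 0 changed sign. With all 40 libraries in 1 fit of group means the calls were 1 on ethanol, 1 on water, 3 under MitoGamide and 0 for MitoGamide in Akita mice. Without the low count filter 5 were called under MitoGamide (1947 over all genes), beside 8 with it (2386). Under MitoQ, DESeq2 called 2 and the fit without the libraries that stood apart 4. With each library left out in turn, the calls ranged from 6 to 11 on ethanol, from 2 to 10 under MitoGamide, from 0 to 4 under MitoQ and from 0 to 1 for MitoGamide in Akita mice, and were 0 throughout for the other 7 fits so treated. Over the 40 libraries the 11 calls (4045 over all genes) became 9 to 13 with a treatment left out (2397 to 4729). They became 12 by DESeq2 (4345), 13 without the libraries that stood apart (4422) and 15 without those with brown fat markers (4161). The causes were not tested.

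Deviations of samples with the same replicate number correlated between -0.534 and 0.738, and in no contrast were all 5 correlations above 0.1. For replicate 3 of the water arm they were 0.482 for diabetes on water and 0.414 under MitoQ. For MitoQ they were 0.513 in Akita and 0.675 in WT mice. What samples of the same number had in common was not tested. With the replicate block the calls were 14 on ethanol (2566 over all genes), 6 under MitoGamide (2282), 13 over all 40 libraries (4026) and 0 in the other 9 fits, where MitoGamide in Akita mice lost the call of Mlxipl and all others (0 over all genes). Genes without a call are not shown to be unchanged.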
